A study of Rattus norvegicus with 20 samples.

Results

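Cortical collecting ducts of control rats on day 2 were compared with those of control rats on day 1, across all genes that could be tested. The comparison took the 4 day 2 control and the 3 day 1 control libraries, 7 of the 20 libraries in the series, each from the ducts of 1 rat. All rats were male Sprague-Dawley rats aged 5 weeks and carried a minipump that released DDAVP, a long-acting analogue of vasopressin, at 5 ng per hour. The control rats ate gelled food with 25 mL of water per day. The water-loaded rats of the series, 4 on day 2 and 3 on day 1, carried the same pump and ate gelled food with 50 mL of water per day, and they serve here as a second pair of days that shares no library with the control rats. A further 3 control rats were sampled on day 4. Both days of control rats therefore received DDAVP, and the contrast between them is one of time on the pump and on the control diet. The day 2 and day 1 libraries came from different rats, and day and library batch cannot be told apart.

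The collecting duct is the last stretch of the kidney tubule and sets how much water and sodium leave in the urine. Its principal cells carry the vasopressin receptor Avpr2, which raises cyclic AMP when bound by vasopressin or DDAVP. The water channel Aqp2 is then moved by vesicles to the apical membrane and its gene is transcribed more, while clathrin-coated pits take the channel back up. Intercalated cells lie between the principal cells and secrete acid (type A) or bicarbonate (type B).

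The ducts were dissected from kidneys, the lysed tubules were turned into cDNA with a protocol made for single cells, and the amplified cDNA was sheared and sequenced. Between 60216536 and 74868598 reads per library fell on genes in the day 2 controls, and between 56257838 and 60678591 in the day 1 controls. Day 1 control 1 stood apart. Its TMM scaling factor was 0.645, against 0.938 to 1.1 in the other 6 libraries, it had the fewest genes with a read (12665), and it placed 18.6% of its reads on genes shorter than 1 kb, against 12.1% to 15.6% in the others. Day 2 control 3 and day 2 control 4 had the most genes with a read, at 14490 and 15236. Pearson correlations of log2 CPM over the 14472 genes tested were 0.811 to 0.887 among the day 2 controls, 0.76 to 0.852 among the day 1 controls, and 0.718 to 0.831 between the days. The 16 principal cell markers summed to 28298 to 44558 CPM (counts scaled to the library's TMM-adjusted total) in the day 2 controls and to 30464 to 43827 CPM in the day 1 controls. Aqp2 alone held much of that sum, at 19132 to 29975 CPM on day 2 and 18082 to 30163 CPM on day 1. Markers of other cells are given below.

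The genes that passed the test between the days were mainly abundant genes that were lower on day 2 and scarce genes that were higher on day 2. Of 14472 genes tested with edgeR's quasi-likelihood test, 194 (1.34%) passed a Benjamini-Hochberg adjusted p of 0.05. Of these, 79 (0.546% of the genes tested) were higher and 115 (0.795%) were lower on day 2. The lower genes were moderately changed, with a median log2 difference of -2.02 and a median level of 192 CPM over the 7 libraries. The higher genes had a median log2 difference of 7.49 at a median level of only 7.67 CPM, against 12.8 CPM for all genes tested. Of the 79 higher genes, 57 averaged under 1 CPM on day 1 and 21 had no read in any day 1 control, so their fitted differences are set largely by reads near the floor. The median over all genes tested was 0.134, and every value below is read beside it.

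The number of calls rested on day 1 control 1 and on day 2 controls 3 and 4. The days did not overlap in 77 of the 79 higher and 107 of the 115 lower genes, so leaving out 1 library could not turn their sign. Without day 1 control 1 the count was 13, of which 12 were among the 194. The sign was kept without that library in 193 of the 194 genes, which was thus largely fixed in advance. Of the 115 lower genes, 100 had their highest day 1 value in that library, against 43.1% of all genes, and 54 of the 79 higher genes had their lowest or tied lowest day 1 value there. Without that library, the median log2 difference was -1.5 for the lower and 7.01 for the higher genes. With day 2 control 3 left out there were 20 calls, with day 2 control 4 left out 21, and with day 1 control 3 left out 406. Of the 59 called genes tested by name below, 48 lost the call when day 1 control 1 was dropped, 43 when day 2 control 3 was, and 42 when day 2 control 4 was, against 7 to 24 for the other libraries. At an unadjusted p under 0.05, 2891 genes (20%) passed. Over all genes tested, every day 2 library was above every day 1 library for 6.94% and below for 6.36%.

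Of the 194 genes, 12 passed the test whichever of the 7 libraries was left out, and this set was drawn from these same libraries. Higher on day 2 were Ssr3, Vimp, Rsl24d1, Il34 and Gpr39. Lower on day 2 were Spint2, Diras3, Clta, Scand1, C1qbp, Eif3f and the predicted gene RGD1307752. In the water-loaded rats, the 7 lower genes passed the test between the same days as well. The 5 higher genes were higher on day 2 there too but did not pass (edgeR adjusted p = 0.135 to 0.403).

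Ssr3, a subunit of the complex that helps nascent proteins cross into the endoplasmic reticulum, had 309, 464, 252.5 and 181 CPM in the day 2 controls, against 14, 18.2 and 28.7 CPM in the day 1 controls. The lowest day 2 library was several times the highest day 1 library. The log2 difference was 3.89 ± 0.49 (SE), 14.8-fold higher on day 2, with an edgeR adjusted p of 0.00254, and it was 3.68 with an adjusted p of 0.0228 without day 1 control 1. Vimp, which encodes a selenoprotein of endoplasmic reticulum quality control, had 352, 133, 148 and 233 CPM in the day 2 controls, against 18.5, 39.6 and 49.8 CPM in the day 1 controls. Its groups did not overlap either, and it was 6.01-fold higher on day 2 (edgeR adjusted p = 0.00552). Rsl24d1, a factor in the assembly of the large ribosomal subunit, had 58.7, 62.8, 15.8 and 21.4 CPM in the day 2 controls, against 2.24, 0.421 and 0.97 CPM in the day 1 controls. Day 2 controls 1 and 2 were the high ones, and the difference was 32.8-fold (edgeR adjusted p = 0.0158).

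Il34, a cytokine that binds the macrophage growth factor receptor Csf1r, had 10.4, 10.8, 4.14 and 15.6 CPM in the day 2 controls and no read in any day 1 control. Set against a floor of 3 reads over the day 1 group, it was at least 517-fold higher on day 2 (edgeR adjusted p = 0.00552). Gpr39, a zinc-sensing receptor, had 4.5, 3, 2.36 and 6.4 CPM in the day 2 controls and no read in any day 1 control, and was at least 206-fold higher (edgeR adjusted p = 0.00879). Such floors cover counting error only, and reads of amplified cDNA are not independent molecules. Both genes had reads in the day 1 water-loaded rats. Il34 had 3.35, 0.185 and 3.42 CPM there, against 5.23 to 14.95 CPM in the day 2 water-loaded rats. Gpr39 had 3.44, 0.238 and 1.29 CPM, against 6.17 to 9.55 CPM.

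Spint2, an inhibitor of membrane-bound serine proteases of epithelia, had 1012, 995, 863 and 916 CPM in the day 2 controls, against 5461, 4098 and 2480 CPM in the day 1 controls. The day 2 rats lay close together and the day 1 rats were spread over a wider range, with day 1 control 1 highest. Spint2 was 4.24-fold lower on day 2, with a log2 difference of -2.08 ± 0.3 (SE) and an edgeR adjusted p of 0.00491, and the difference was -1.8 without day 1 control 1. Diras3, a small GTPase of the Ras family, had 11.9, 17.1, 14.8 and 14.9 CPM in the day 2 controls, against 314, 439 and 282 CPM in the day 1 controls. Here day 1 control 2 was the highest library, and the difference of -4.56 ± 0.61 (SE; edgeR adjusted p = 0.00334) was -4.62 without day 1 control 1.

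Clta, the clathrin light chain A of coated pits and vesicles, had 111, 133, 56.3 and 64.4 CPM in the day 2 controls, against 1371, 901 and 1162 CPM in the day 1 controls. It was 12.6-fold lower on day 2 (log2 difference -3.65 ± 0.51, SE; edgeR adjusted p = 0.00334). Scand1, a SCAN domain protein that binds zinc finger proteins, had 18.4, 32.6, 6.08 and 5.43 CPM in the day 2 controls, against 857, 416 and 174 CPM in the day 1 controls, and was 30.8-fold lower (edgeR adjusted p = 0.00498). C1qbp, a protein of the mitochondrial matrix, was 8.55-fold lower and Eif3f, a subunit of a translation initiation factor, was 9.81-fold lower (edgeR adjusted p = 0.0063 for each). In all 4 genes, day 2 controls 3 and 4 were the lowest libraries. RGD1307752 had 84.3, 53.9, 27.3 and 39.2 CPM in the day 2 controls, against 387, 373 and 397 CPM in the day 1 controls.

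**Figure D1:**
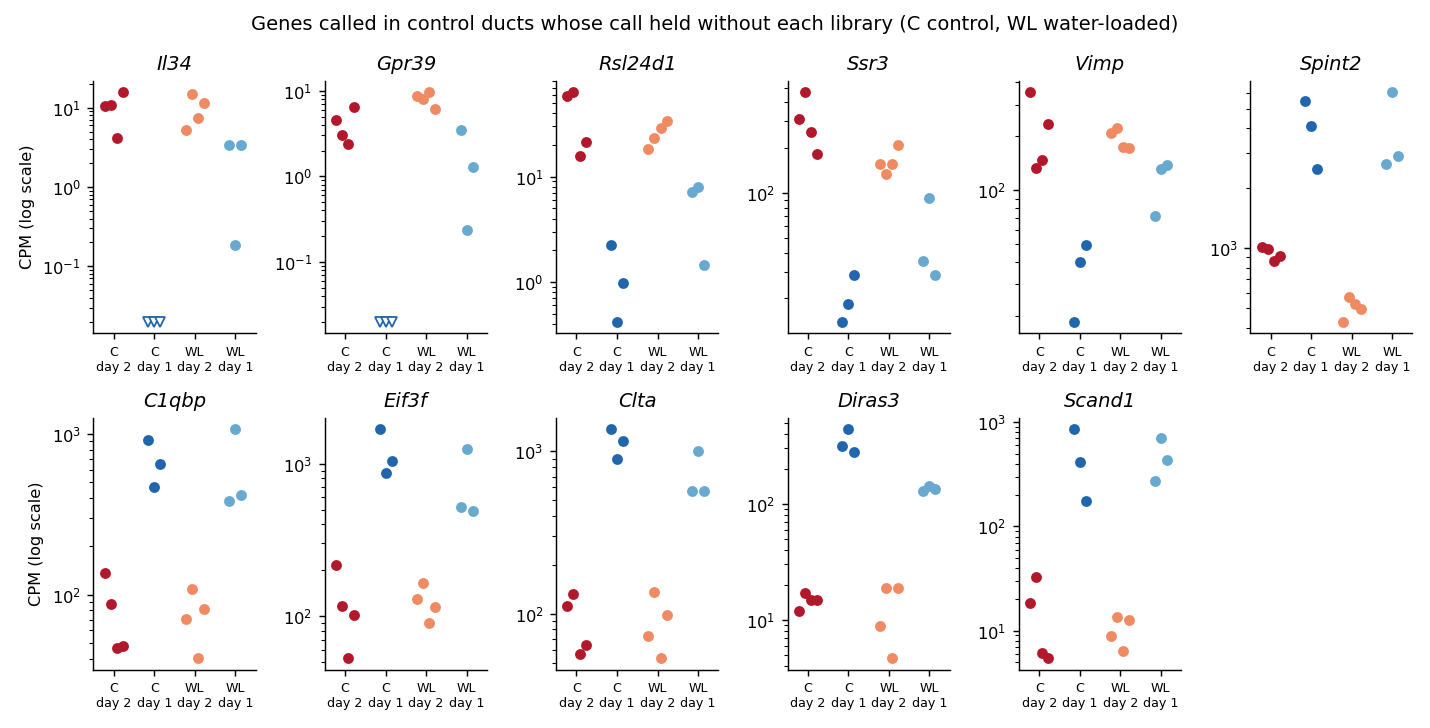
Levels of 11 of the genes that passed the test whichever library was left out, in CPM on a log axis, with 1 point per library and columns for day 2 and day 1 control rats, then day 2 and day 1 water-loaded rats. Open triangles at the foot of the axis are libraries with no read. Ssr3 lies at 181 CPM or more in every day 2 control and at 28.7 CPM or less in every day 1 control, and Diras3 at 17.1 CPM or less against 282 CPM or more.

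The 12 named genes with the largest rise had at least 10 CPM on average over the 7 libraries and at most 4.28 CPM in any day 1 control. Besides Rsl24d1, they included Afap1l1, Cxcl10, Hnrnph2, Tmtc4, Gulp1, Ppil1, Slbp, Zfp148, Paip1 and Pogz. Slbp, which binds the stem-loop of histone mRNAs, had 56.4, 35.8, 94.9 and 80.5 CPM in the day 2 controls, against 0.111, 0.147 and 2.69 CPM in the day 1 controls (log2 difference 6.07 ± 1.11, SE; edgeR adjusted p = 0.0179).

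Hnrnph2, a splicing regulator, had 19.1, 36.9, 13.7 and 23.7 CPM in the day 2 controls, and 2 reads in all in the day 1 controls. Its ratio was 1788, with an exact 95% counting interval of 495 to 14766. Cxcl10, an interferon-induced chemokine, had 0.171, 0.128, 27.8 and 42.4 CPM in the day 2 controls and 1 read in all in the day 1 controls. The high values were those of day 2 controls 3 and 4 alone, and the call was lost without either of them or any of the day 1 controls (edgeR adjusted p = 0.0706 to 0.165). Afap1l1, an actin-associated protein, reached 63.1 CPM in day 2 control 2 but 0.779 to 7.67 CPM in the other day 2 controls, with no read on day 1. Without day 1 control 1, 11 of the 12 genes lost the call, at edgeR adjusted p-values of 0.0637 to 0.177, and Rsl24d1 kept it. Without day 2 control 3 or day 2 control 4, 7 lost it (0.0557 to 0.0939), as did 6 without day 1 control 2 (0.0529 to 0.0827), 3 without day 2 control 1 (0.0594 to 0.0599), 3 without day 2 control 2 (0.0582 to 0.0619) and 2 without day 1 control 3 (0.0667 to 0.0706).

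The 12 named genes with the largest fall included Diras3 and Scand1 and the smooth muscle gene Cnn1, which is described with the markers of other cells below. The others were Gtf3a, Ppp1r37, Ocel1, Tesc, Sf3a2, Gm9905, Ppp1r14a, E2f1 and Tmem102. Gtf3a, the transcription factor of 5S ribosomal RNA genes, had 1.04, 3.9, 8.82 and 13 CPM in the day 2 controls, against 120, 38.8 and 96.8 CPM in the day 1 controls. Ocel1 had 10.5, 10.9, 13 and 13.3 CPM in the day 2 controls, against 177, 138 and 176 CPM in the day 1 controls. The rule that named these 12 genes took only genes whose days did not overlap. The log2 differences of Gtf3a and Ocel1 were -3.67 ± 0.85 and -3.78 ± 0.66 (SE; edgeR adjusted p = 0.0378 and 0.015). Sf3a2, a splicing factor subunit, had 2.6, 0.968, 0.483 and 0.292 CPM in the day 2 controls, against 47.5, 38.8 and 30.1 CPM in the day 1 controls (edgeR adjusted p = 0.0256).

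E2f1, a transcription factor of the cell cycle, was at 0.0427 to 0.6 CPM in the day 2 controls, against 74.8, 0.879 and 16.5 CPM in the day 1 controls. Tesc, a calcium-binding partner of the sodium-proton exchanger, was at 3.62 to 8.54 CPM on day 2, against 208, 46.7 and 16.3 CPM on day 1. In both genes day 1 control 1 was the highest library by a wide margin. Of the 12 genes, 10 lost the call without day 1 control 1, at edgeR adjusted p-values of 0.0506 for Ocel1 to 0.618 for Ppp1r14a. As many lost it without day 2 control 3 (0.0569 to 0.124) and without day 2 control 4 (0.0512 to 0.109), 7 lost it without day 2 control 1 (0.0527 to 0.0804), 6 without day 2 control 2 (0.0546 to 0.0765), and 1, Ppp1r37, without day 1 control 2 (0.0866). Diras3 and Scand1 kept it each time.

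The same days were set against each other in the water-loaded rats, whose libraries are separate from those of the control rats. There 27 genes (0.187% of those tested) passed the test, 7 higher (0.0484%) and 20 lower (0.138%) on day 2. Of these, 19 were also among the 194 of the control rats, which is 70.4% of the water-loaded calls and 9.79% of the control calls, and all 19 had the same sign in both. Of the control rats' calls, 65 of 79 higher genes (82.3%) were higher and 107 of 115 lower genes (93%) were lower in the water-loaded rats too, against 53.2% and 46.6% of all genes. The water-loaded medians of these genes were 1.16 and -1.21, and since the genes were chosen for passing in control rats, these are not set against the control medians. Day and library batch cannot be told apart in the water-loaded rats either. Day 1 water-loaded 2 also stood apart, with a TMM factor of 0.686, against 1.094 and 1.032 in the other day 1 water-loaded libraries. It had 12788 genes with a read, against 13505 and 13669. In every shared gene that was lower on day 2, it was the highest day 1 water-loaded library. Both pairs of days were tested in the same fit.

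Spint2 had the smallest adjusted p in the water-loaded rats, at 430, 572, 525 and 494 CPM on day 2 and 2640, 6019 and 2902 CPM on day 1 (log2 difference -2.93; edgeR adjusted p = 0.000167). Itm2b, a membrane protein found in many tissues, had 5333, 5819, 1911 and 3429 CPM in the day 2 controls, against 28144, 19039 and 11913 CPM in the day 1 controls. It was 4.78-fold lower in control rats (edgeR adjusted p = 0.0097) and had a log2 difference of -2.58 in water-loaded rats (adjusted p = 0.00585). Cebpd, a transcription factor induced by inflammation and stress, had 24.2, 18.3, 12.7 and 16.1 CPM in the day 2 controls, against 299, 260 and 105 CPM in the day 1 controls. Its difference was -3.63 in control and -5.78 in water-loaded rats (edgeR adjusted p = 0.0311 and 0.00585).

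Only 3 of the 19 shared genes were higher on day 2, among them Cd9. Cd9, a tetraspanin of the cell surface, had 539.8, 811, 779 and 1134 CPM in the day 2 controls, against 221, 297 and 330.5 CPM in the day 1 controls, and was 2.88-fold higher (edgeR adjusted p = 0.0256). Every day 2 library was above every day 1 library. The remaining shared genes that fell were C1qbp, Arf5, Mapre3, Clta, Eif3f, Tmem160, Ssbp4, Scand1, RGD1307752, RGD1309779, RGD1561582, Diras3 and Abhd8. Of the 16 shared genes with a name of their own, 10 lost the call in control rats without day 1 control 1, at edgeR adjusted p-values of 0.103 to 0.177, and 9 lost it without day 2 control 3 (0.0603 to 0.111) or without day 2 control 4 (0.0557 to 0.103).

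No gene passed edgeR's test of whether the difference between days differed between control and water-loaded rats (0%). The smallest edgeR adjusted p of that interaction was 0.24, and 1579 genes (10.9%) had an unadjusted p under 0.05, while DESeq2 called 518 and edgeR called 8 without day 1 control 3 and 1 without day 2 control 3. Among genes of at least 10 CPM over the 14 libraries, the 3 per direction with the smallest unadjusted p included Lpxn, a focal adhesion protein, with 6.36, 18.4, 6.31 and 13.4 CPM in the day 2 controls and no read in the day 1 controls, and with 4.66 to 9.25 CPM in the day 2 water-loaded rats, against 0.0184, 47.7 and 20.3 CPM in the day 1 water-loaded rats. Pxmp2, a peroxisomal membrane channel, had 9.24 to 20.6 CPM in the day 2 controls, against 157, 64.7 and 31.9 CPM in the day 1 controls, while the water-loaded rats had 9.45 to 31.8 CPM on day 2 and 6.54 to 15.9 CPM on day 1. Cyp4a2, Plekha5, Ankle1 and Slc2a4 were the other 4. In control rats, 1 library held most of the CPM of Cyp4a2 (day 2 control 1), Ankle1 and Slc2a4 (day 1 control 1).

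**Figure D2:**
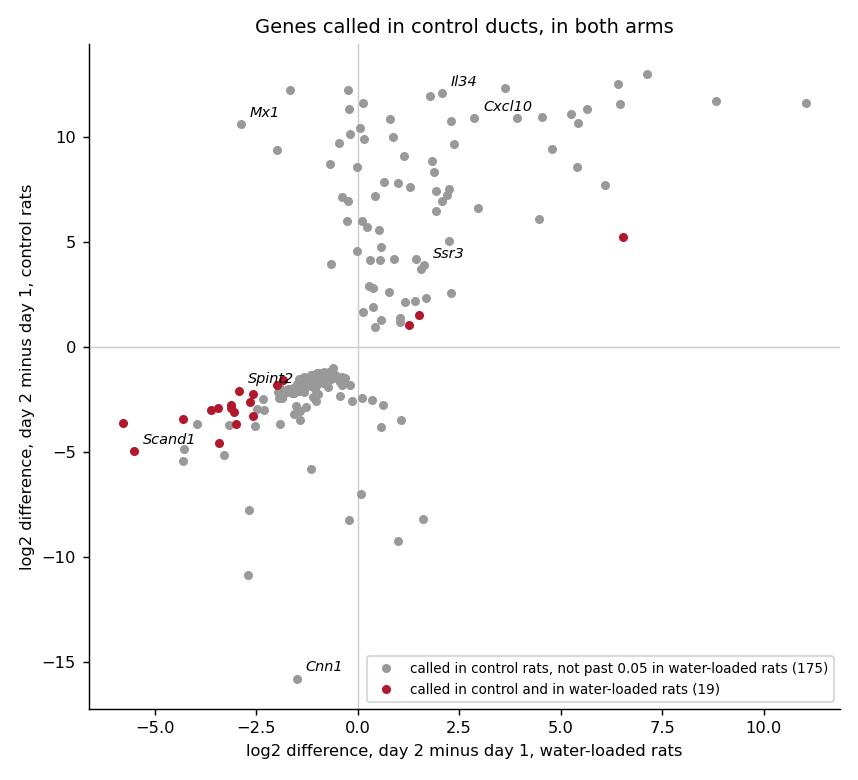
Log2 difference of day 2 minus day 1 for the 194 genes called in control rats, in water-loaded rats on the x axis and in control rats on the y axis, with 1 point per gene and the 19 genes called in both marked. Of the 115 genes lower in control rats, 107 lie left of 0, and the median of the lower genes is -1.21 on the x axis.

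The water channels, the vasopressin receptor and the sodium channel subunits did not pass the test between the days. Aqp2 was among the most abundant genes, at 19132, 21435, 26942 and 29975 CPM in the day 2 controls, against 30163, 19032 and 18082 CPM in the day 1 controls. The groups overlapped, with the highest value in day 1 control 1, and the log2 difference was 0.12 ± 0.31 (SE; edgeR adjusted p = 0.878). An exact two-sided permutation test gave p = 0.571, where 4 against 3 libraries allow no p below 0.0571. Avpr2 had a difference of 0.25 ± 0.31 and Aqp3, the basolateral water channel, of 0.49 ± 0.36, and the other basolateral channel Aqp4 had -0.45 ± 0.41. Of the epithelial sodium channel subunits, Scnn1a had -0.42 ± 0.26, Scnn1b 0.27 ± 0.27 and Scnn1g 0.28 ± 0.24. None of these 6 passed (edgeR adjusted p = 0.379 to 0.718).

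Of the 16 principal cell markers, 10 were higher and 6 lower at any p, against 54% and 45.4% of all genes, with a median of 0.25 and no call. Of 17 sodium and aldosterone genes, 10 were higher and 7 lower with a median of 0.27 and no call. Among them Sgk1, the kinase induced by aldosterone, had a difference of 0.9 (edgeR adjusted p = 0.162). Of 21 tested genes of vasopressin signalling and vesicle transport, 13 were lower and 8 higher, with a median of -0.19. Only Vamp2 passed (4.76%), lower on day 2, against 0.795% of all genes. Vamp2, a vesicle membrane protein of the fusion machinery found on Aqp2 vesicles, had 92.1, 76, 54.7 and 78.8 CPM in the day 2 controls, against 350.3, 156 and 147 CPM in the day 1 controls. It was 2.89-fold lower (edgeR adjusted p = 0.0256), and without day 1 control 1, its highest library, the difference was -1.01 and did not pass (adjusted p = 0.141). It did not pass without day 2 control 3 or day 2 control 4 either (adjusted p = 0.0845 and 0.0621).

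Among intercalated cell genes, Slc26a4 was higher on day 2. It was the only call among 7 type B markers tested (14.3%), against 0.546% of all genes called higher. Slc26a4, the pendrin exchanger through which type B cells secrete bicarbonate, had 3496, 4554, 3306 and 3844 CPM in the day 2 controls, against 1745, 2139 and 1989 CPM in the day 1 controls. Every day 2 library exceeded every day 1 library, and the difference was 0.96 ± 0.23 on the log2 scale, 1.94-fold higher on day 2 (edgeR adjusted p = 0.0426). The call was lost whichever of the 7 libraries was left out (adjusted p = 0.0599 to 0.204, the highest without day 1 control 1). Of the other 6 type B markers tested, 4 were higher and 2 lower, without a call, and Slc4a9, a sodium-bicarbonate transporter of type B cells, had a difference of 1.25 (edgeR adjusted p = 0.147). In these bulk libraries, more cells of a type and more RNA per cell cannot be told apart. The 12 type A markers were evenly split at 6 and 6, with a median of 0.06. Among them Kit, a receptor tyrosine kinase, and Foxi1, the transcription factor of intercalated cells, had differences of 1.12 and 0.87 without overlap between the days. Neither passed (edgeR adjusted p = 0.0938 and 0.109). Of the 12 markers, 2 had every day 2 library above every day 1 library, against 6.94% of all genes, and 1 below, against 6.36%. The 18 subunits of the vacuolar proton pump had a median of -0.11, with 6 higher, 12 lower and no call.

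Cytoplasmic ribosomal protein genes were the group with the most calls. Of 35 tested, 33 were lower on day 2 at any p, against 45.4% of all genes, 9 passed the test, all lower, against 0.795% of all genes, and the median log2 difference was -1.09, against 0.134 for all genes. For 22 of the 35, every day 2 library was below every day 1 library, against 6.36% of all genes. Only Rplp0 and Rps4x lay above 0, at 0.1 and 0.2. Rplp1, a stalk protein of the large subunit, had 1807, 1464, 798 and 1730 CPM in the day 2 controls, against 5904, 3570 and 3189 CPM in the day 1 controls, and was 2.91-fold lower (edgeR adjusted p = 0.0256). Rpsa, a small subunit protein that also serves as a laminin receptor, had 761, 741, 496 and 785 CPM in the day 2 controls, against 2341, 1594 and 1326 CPM in the day 1 controls, at -1.33 ± 0.24 (SE; edgeR adjusted p = 0.0158). In both, day 1 control 1 was the highest and day 2 control 3 the lowest library. The others that passed included Rps18, Rpl19, Rps23, Rpl13 and Rps2.

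The mean log2 CPM of the 35 genes was 7.36, 7.24, 6.39 and 7.33 in the day 2 controls, against 8.69, 7.82 and 7.72 in the day 1 controls. Without day 1 control 1 the median was -0.76, with 28 of 35 genes lower and none called. Rplp1 also lost the call without day 2 control 3 or day 2 control 4 (edgeR adjusted p = 0.0751 and 0.0557), and Rpsa without day 2 control 3 (0.0603). In the water-loaded rats the median was -0.7. With a trend on gene length taken out, the median in control rats was -0.54. These genes are short, with a median length of 691 bases, and many have near-identical processed copies elsewhere in the genome that can share their reads, so their counts are uncertain.

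Many mRNAs of ribosomal proteins begin with a C followed by a run of pyrimidines, the tract through which their translation is controlled. The first bases of the called genes with a promoter entry are shown to see whether they carry this tract. Each line is 30 bases read 5′ to 3′ on the gene's own strand (RefSeq, GRCr8), 15 before and 15 from the annotated start, and capitals mark a C followed by at least 4 C or T within 5 bases of the start.
Rpl13 at chr19:68062499-68062528, plus strand: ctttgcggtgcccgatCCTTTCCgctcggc
Rpl19 at chr10:83519049-83519078, plus strand: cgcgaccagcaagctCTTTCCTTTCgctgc
Rplp1 at chr8:71290858-71290887, minus strand: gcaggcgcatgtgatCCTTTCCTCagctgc
Rps18 at chr20:4933730-4933759, plus strand: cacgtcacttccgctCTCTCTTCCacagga
Rps23 at chr2:23814502-23814531, plus strand: tgggtccttcctgcCTCTCTTCTCTCTTTC
Rps2 at chr10:14251833-14251862, plus strand: cctcttctttttcttcgggaaaacacgtga
Rpsa at chr8:128728864-128728893, plus strand: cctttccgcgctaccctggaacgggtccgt

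The tract lay within 5 bases of the annotated start in 19 of the 31 ribosomal protein genes with a promoter entry (61.3%), against 17.0% of all 33469 promoters. It began exactly at the start in 11 of 31 (35.5%), against 2.63% of all promoters. Of the 7 called genes shown, Rps2 and Rpsa had no tract that began within 5 bases of the start. In Rps2, a run of pyrimidines that begins further upstream extends through the start, and in Rpsa a run lies upstream of the start. Rplp0 and Rps4x, the 2 genes above 0, both had a tract that began within 5 bases of the start.

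Of 40 nuclear-encoded subunits of oxidative phosphorylation tested, 32 were lower on day 2 at any p, against 45.4% of all genes, and 2 passed, both lower, against 0.795% of all genes. The median was -0.53, and the list's mean log2 CPM overlapped between the days, at 8.32, 8.13, 7.81 and 8.56 in the day 2 controls, against 9.11, 8.53 and 8.54 in the day 1 controls. Cox4i1, a subunit of cytochrome c oxidase, had 1336, 1469, 515 and 1293 CPM in the day 2 controls, against 5488, 2812 and 2856 CPM in the day 1 controls (log2 difference -1.69 ± 0.34, SE; edgeR adjusted p = 0.0256). Cox8a, another subunit of that enzyme, had 1187, 1049, 915 and 1071 CPM in the day 2 controls, against 3328, 2583 and 2222 CPM in the day 1 controls (-1.36 ± 0.27; edgeR adjusted p = 0.0256). As for the ribosomal genes, day 1 control 1 was highest, and without it the median was -0.28, with no call. Both genes also lost the call without day 2 control 3 or day 2 control 4 (edgeR adjusted p = 0.0557 to 0.0751). In the water-loaded rats the list's median was 0.03, with 21 of 40 genes higher. Of 22 glycolytic enzymes and hypoxia genes, 17 were lower and 5 higher, with a median of -0.29. Only 1 passed (4.55%), lower on day 2, against 0.795% of all genes. Eno1, the glycolytic enolase, had 1560, 1849, 846 and 1427 CPM in the day 2 controls, against 3906, 2814 and 2674 CPM in the day 1 controls (-1.14 ± 0.27; edgeR adjusted p = 0.0402, and 0.0529 to 0.217 without day 1 control 1 or 2 or day 2 control 1, 3 or 4). The 13 genes encoded by the mitochondrial genome had a median of -0.18, with 6 higher and 7 lower and no call.

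**Figure D3:**
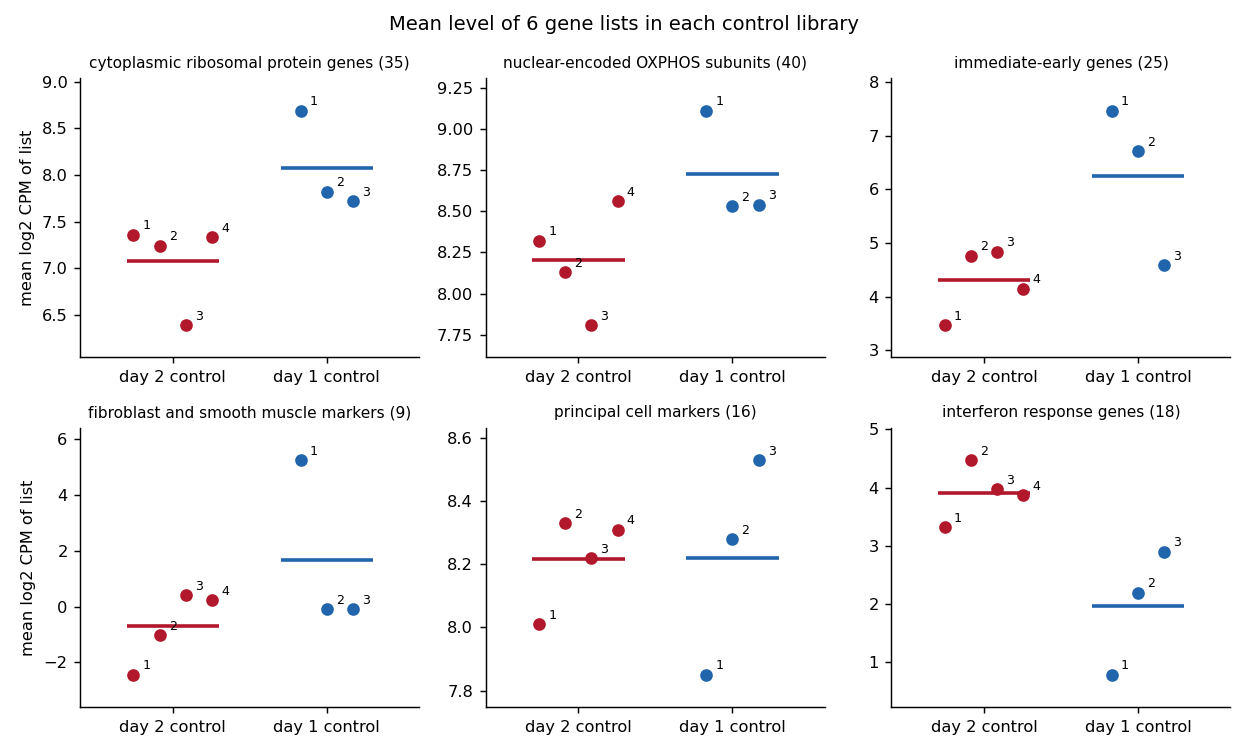
Mean log2 CPM of 6 gene lists in each control library, with 1 point per library, its replicate number beside it, day 2 left of day 1, and a line at each group's mean. Ribosomal protein genes lie at 6.39 to 7.36 on day 2 and 7.72 to 8.69 on day 1. Day 1 control 1 stands above the other day 1 controls in the ribosomal, oxidative phosphorylation, immediate-early and smooth muscle lists. It stands below them in the principal cell and interferon lists.

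Immediate-early genes, which are transcribed within minutes of a stimulus or of tissue handling, were high in 2 of the 3 day 1 controls. Of 25 tested, 24 were lower on day 2 at any p, against 45.4% of all genes, 2 passed, both lower, against 0.795% of all genes, and the median was -1.98. Fosb, a partner of Jun proteins in the AP-1 transcription factor, had 44.3, 83, 18.6 and 5.04 CPM in the day 2 controls, against 2559, 667 and 24.7 CPM in the day 1 controls (-4.84 ± 1.03, SE; edgeR adjusted p = 0.0289). Atf3, a stress-induced transcription factor, had 199.5, 836, 248 and 93.6 CPM in the day 2 controls, against 8425, 5035 and 196 CPM in the day 1 controls (-3.72 ± 0.9; edgeR adjusted p = 0.045). Day 1 control 3 lay within the range of the day 2 controls in both genes, and the high values were those of day 1 controls 1 and 2. Without day 1 control 1 neither passed (edgeR adjusted p = 0.202 and 0.224). Neither passed without day 2 control 1, 3 or 4 (0.0594 to 0.126), and Atf3 did not pass without day 1 control 2 (0.0603).

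The list's mean log2 CPM was 3.47, 4.76, 4.84 and 4.15 in the day 2 controls, against 7.47, 6.71 and 4.59 in the day 1 controls. Without day 1 control 1 the median was -1.07, with 24 of 25 genes still lower and none called. Fos had 1079, 1175, 1569 and 799 CPM in the day 2 controls, against 5987, 2490 and 512 CPM in the day 1 controls, and did not pass (-1.37 ± 0.57; edgeR adjusted p = 0.199). In the water-loaded rats 22 of the 25 genes were lower on day 2, with a median of -1.49.

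Many immediate-early genes answer to cyclic AMP, the messenger of the vasopressin receptor, through the palindrome TGACGTCA bound by CREB family factors. It stood in the promoters (250 bases before to 50 bases after the start) of 5 of 19 of these genes with an entry (26.3%), against 612 of 33469 promoters (1.83%), both strands being read at once. The 5 were Btg2, Dusp1, Ier2, Jund and Maff. Btg2, Dusp1, Jund and Maff were tested and did not pass, and no test result is given for Ier2. Neither called gene of the list was among the 5. A stretch of 30 bases around the motif is shown for 4 of them to place it in its promoter, with the motif in capitals (RefSeq, GRCr8).
Btg2 at chr13:48087873-48087902, minus strand: gttcccaataaTGACGTCAgtgagcgatga
Dusp1 at chr10:17184718-17184747, plus strand: ggcagggcgggTGACGTCAccacccggtca
Jund at chr16:18769974-18770003, minus strand: ccccacccccaTGACGTCAacccacaatgc
Maff at chr7:112792725-112792754, plus strand: cgctggggcggTGACGTCActgcatgactg

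Btg2, a growth-arrest gene, had 433, 944, 670 and 397.5 CPM in the day 2 controls, against 3047, 1906 and 408 CPM in the day 1 controls (-1.55 ± 0.5, SE; edgeR adjusted p = 0.114). Day 1 controls 1 and 2 were again the high libraries, with day 1 control 3 inside the day 2 range. The motif is a match of letters only.

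The 9 tested markers of fibroblasts, pericytes and smooth muscle had a median of -4.68, which was -0.21 without day 1 control 1. They summed to 24.9 to 67.8 CPM in the day 2 controls, and to 4007, 59.4 and 39.1 CPM in the day 1 controls. Cnn1, calponin of smooth muscle, had no read in any day 2 control and 394, 0.733 and 1.36 CPM in the day 1 controls. It was at least 11534-fold lower on day 2 against a floor of 3 reads over the day 2 group (edgeR adjusted p = 0.0304). From day 1 controls 2 and 3 alone, a choice made after seeing the data, it was at least 91.7-fold lower and did not pass (edgeR adjusted p = 0.233). Tagln, another smooth muscle gene, had 0.0285 to 0.561 CPM on day 2, against 480.5, 2.62 and 0.444 CPM on day 1. Of 22 actin and myosin genes, 14 were lower and 8 higher. Only Flna passed (4.55%), lower on day 2, against 0.795% of all genes. Flna, an actin crosslinker, had 53.7 to 85.9 CPM in the day 2 controls, against 2077, 64.2 and 86.6 CPM in the day 1 controls, and Ppp1r14a, an inhibitor of myosin phosphatase, had 0.453 to 1.71 CPM, against 194, 4.54 and 2.88 CPM. Without day 1 control 1, Tagln, Flna and Ppp1r14a did not pass (edgeR adjusted p = 0.545, 0.943 and 0.618), and these 4 genes also lost the call without any 1 of the day 2 controls (0.0549 to 0.126). The part of the smooth muscle markers in the other genes high in day 1 control 1 was not tested.

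Proximal tubule markers summed to 269 to 3006 CPM in the day 2 controls, highest in day 2 control 1, and to 1132, 113 and 129 CPM in the day 1 controls. Of 16 tested, 13 were higher and none was called, and Cubn, Slc5a2 and Slc22a12 had no read in any day 1 control. Endothelial markers summed to 111 to 962 CPM on day 2 and to 1113, 205 and 349 CPM on day 1, and markers of the thick ascending limb and distal tubule to 583 to 1498 CPM, against 597, 1207 and 7314 CPM. Immune cell markers summed to 134 to 969 CPM on day 2, against 116, 163 and 180 CPM on day 1. Of the 12 tested, 9 were higher and 3 lower at any p. Aif1, a calcium-binding protein of macrophages, was the only call (8.33%), against 0.546% of all genes called higher. It had 10.5, 5, 10.8 and 30.3 CPM in the day 2 controls, against 0.0553, 0 and 0.0329 CPM in the day 1 controls (edgeR adjusted p = 0.0289, and 0.0573 to 0.123 without day 1 control 1 or 2 or day 2 control 3 or 4). Ptprc, Csf1r, C1qa and C1qb, which mark leukocytes and macrophages, did not pass, at log2 differences of 2.4, 0.86, 0.22 and 0.38 (edgeR adjusted p = 0.668, 0.733, 0.97 and 0.919), and the myeloid marker Tyrobp had -1.19 (0.547).

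Of 18 interferon response genes, 10 were higher and 8 lower, with a median of 0.8. Only 1 passed (5.56%), higher on day 2, against 0.546% of all genes. Mx1, an antiviral GTPase, passed, with 6.4, 37.1, 5 and 3.81 CPM in the day 2 controls and 1 read in all in the day 1 controls. Its ratio was 2070, with an exact 95% counting interval of 371 to 81778 (edgeR adjusted p = 0.0472, and 0.211 without day 1 control 1). In the water-loaded rats its log2 difference was -2.89 (adjusted p = 0.444). For 5 of the 18 genes, Mx2, Oas1a and Usp18 among them, every day 2 library was above every day 1 library, against 6.94% of all genes, and apart from Mx1 these did not pass. Of 19 tubule injury and keratin genes, 11 were lower and 8 higher, with a median of -0.38. Only Krt19 passed (5.26%), higher on day 2, against 0.546% of all genes. Krt19, a keratin of simple epithelia, had 20.5, 8.62, 2.4 and 2.08 CPM in the day 2 controls and 3 reads in all in the day 1 controls, with a ratio of 425 (145 to 2064; edgeR adjusted p = 0.0343). Of 17 MAPK feedback genes, 11 were higher and 6 lower, and only Etv5 passed (5.88%), higher on day 2. Etv5, a transcription factor of growth factor signalling, had 33, 16.7, 2.49 and 0.665 CPM in the day 2 controls and 1 read in all in the day 1 controls, with a ratio of 2022 (363 to 79883; edgeR adjusted p = 0.0399). In both, day 2 controls 1 and 2 were the high libraries. Mx1 and Etv5 lost the call whichever library was left out (edgeR adjusted p = 0.0558 to 0.211), and Krt19 without day 1 control 1 or 2 or day 2 control 1, 3 or 4 (0.0585 to 0.146).

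Hspb1, a small heat shock protein, was the only called gene of 19 heat shock chaperones (5.26%), against 0.795% of all genes called lower. It had 53.9, 39, 102 and 66.7 CPM in the day 2 controls, against 1785, 205 and 210 CPM in the day 1 controls. The difference was -3.49 ± 0.69 (SE), and -1.66 without day 1 control 1, its highest library. The edgeR adjusted p was 0.0256, and 0.0513 to 0.233 without day 1 control 1 or day 2 control 1, 3 or 4. Col18a1, the basement membrane collagen that yields endostatin, was the only called gene of 17 for matrix and TGF-beta (5.88%), against 0.795% of all genes. It had 720, 682, 644 and 664.5 CPM in the day 2 controls, against 1617, 1356 and 1136 CPM in the day 1 controls (-1.02 ± 0.23; edgeR adjusted p = 0.0378, and 0.0591 to 0.183 without any library but day 1 control 3). The day 2 rats were closer to one another here than the day 1 rats, and the days did not overlap.

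The remaining lists had no call. Medians lay above that of all genes for the Nrf2 antioxidant targets (0.47, with 10 of 14 higher), the claudins and junction genes (0.35, with 12 of 18 higher) and RNA splicing factors (0.18). They lay below it for cholesterol synthesis (-0.66, with 14 of 22 lower), the apoptosis and p53 genes (-0.58), the endothelin, purinergic and nitric oxide genes (-1.04), the unfolded protein response (-0.22), prostaglandin genes (-0.22), proteasome subunits (-0.16), tubulins (-0.11), circadian clock genes (-0.05), fatty acid synthesis (-0.02) and the tonicity-responsive genes (0.08). Cell cycle genes were at low levels and split at 11 higher and 16 lower, with a median of -0.17. In the water-loaded rats all 27 cell cycle genes were higher on day 2 at any p, with a median of 1.71, but none passed. Of the 38 lists, 11 had a median of the other sign without day 1 control 1, among them the endothelin, purinergic and nitric oxide genes (2.33, with 8 of 12 higher, against -1.04 with all 7 libraries), the proteasome subunits (0.26), the mitochondrially encoded genes (0.28), the endothelial markers (0.95), the type B markers (-0.02) and the tubule injury and keratin genes (0.16, against -0.38 with all 7 libraries).

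**Figure D4:**
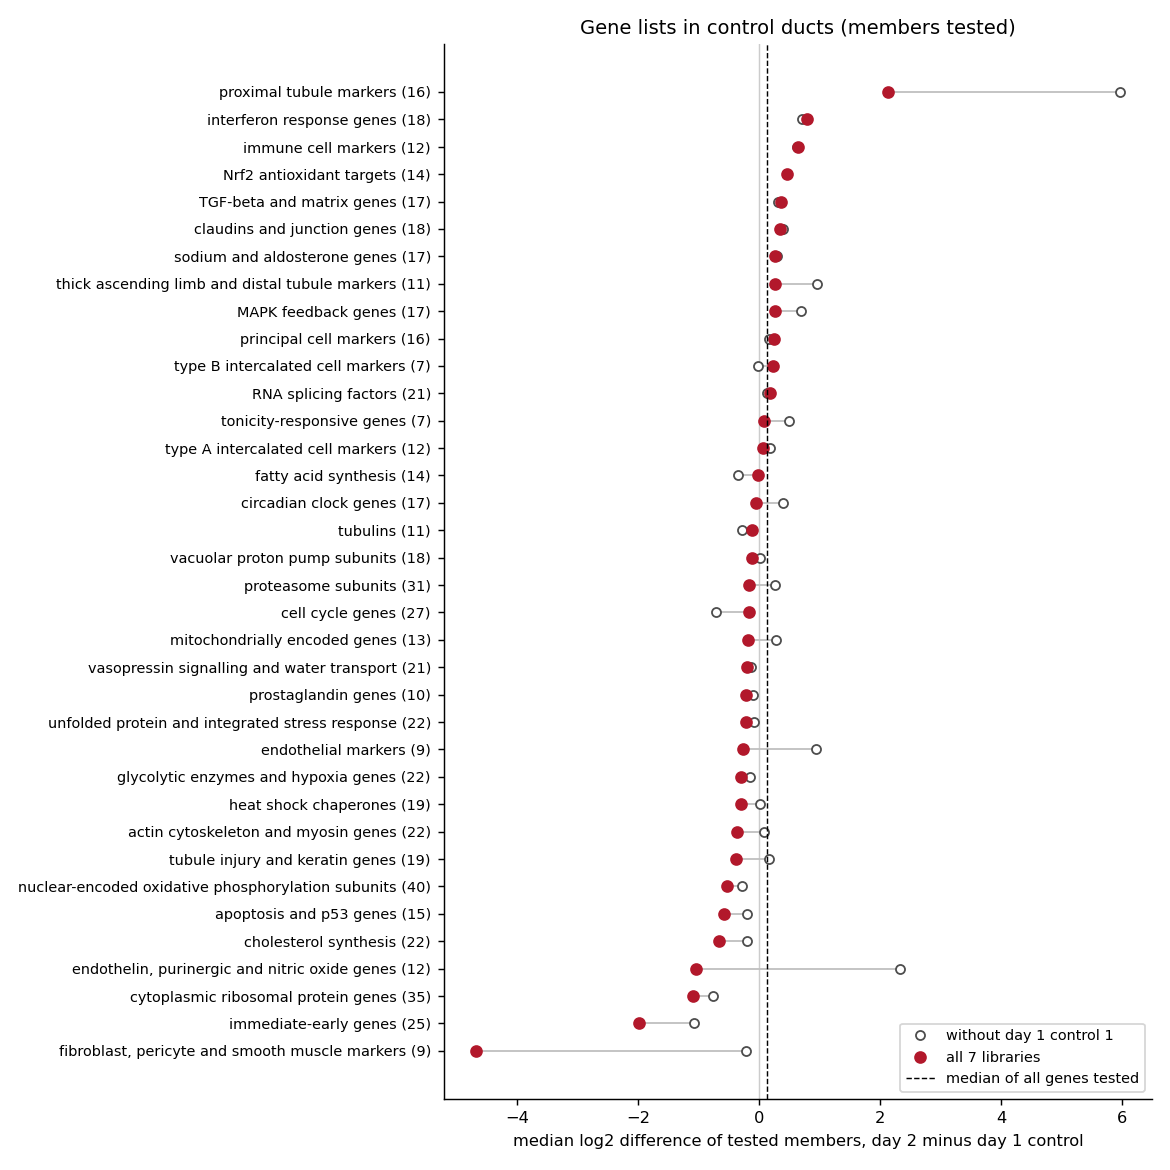
Median log2 difference of day 2 minus day 1 for each gene list in control rats, with filled points for all 7 libraries, open points without day 1 control 1, and a dashed line at the median of all genes tested. The ribosomal protein genes move to -0.76 and the immediate-early genes to -1.07 without that library, while the smooth muscle list moves to -0.21.

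Gene length went with the difference between the days. The median length was 1505 bases for the 115 genes that fell and 2063 bases for the 79 that rose, against 2029 bases for all genes tested. Among genes of at least 10 CPM, the shortest decile (59 to 675 bases) had a median log2 difference of -0.63 and the next decile of -0.31, whereas the longest decile had 0.02. In the water-loaded rats the shortest decile had -0.35 and the longest -0.04. The shortest decile held 17 of the 115 genes that fell and 3 of the 79 that rose. The next decile held 22 and 4, decile 4 held 16 and 9, and the longest decile held 3 and 3. Each of these deciles had 1447 or 1448 genes. Over all its genes, whatever their level, the shortest decile had a median log2 difference of -0.09, against 0.134 for all genes tested. With a smooth trend on length taken out of each library, 192 genes were called. Day 1 control 1 had the largest share of reads on genes shorter than 1 kb, and whether that share or the day accounts for the relation was not tested.

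**Figure D5:**
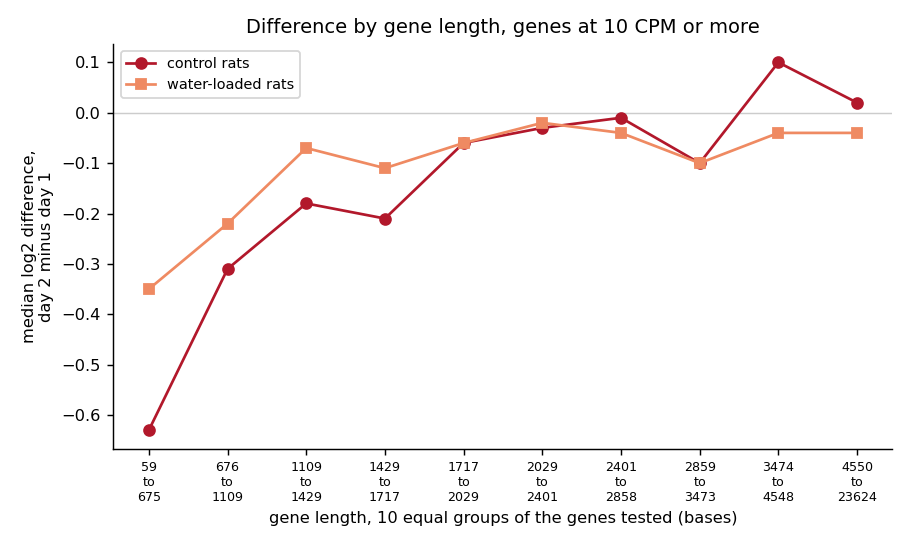
Median log2 difference of day 2 minus day 1 for genes of at least 10 CPM by decile of gene length, from the shortest on the left to the longest on the right, in control rats and in water-loaded rats. Control rats are at -0.63 in the shortest decile and highest, at 0.1, in decile 9, and water-loaded rats are at -0.35 in the shortest decile and between -0.11 and -0.02 from decile 3 on.

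The 3 control rats of day 4 showed where the levels lay later, with the reservation that a comparison of day 4 with day 1 shares the day 1 libraries with the one above. Against day 2, no gene of day 4 passed edgeR's test (0%), with 1634 genes (11.3%) at an unadjusted p under 0.05 and a smallest adjusted p of 0.118. Against day 1, 347 genes (2.4%) passed on day 4, and these included 104 of the 194. Ssr3 had 192, 373 and 193 CPM in the day 4 controls, which is within the day 2 range of 181 to 464 CPM. Clta had 77.7, 110.1 and 69.8 CPM in the day 4 controls, and Spint2 had 1132, 1573 and 795 CPM, on either side of its day 2 values. Slc26a4 had 2613, 2907 and 3168 CPM in the day 4 controls, above every day 1 library and below every day 2 library. Aqp2 had 42896, 55370 and 25379 CPM on day 4, 2 of them above every day 2 and day 1 library, at a log2 difference from day 1 of 0.88 that did not pass (edgeR adjusted p = 0.151).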

How the data were processed

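The authors deposited 1 table of read counts per gene for all 20 libraries and tables of FPKM values; per the submitters' processing notes, reads were trimmed with Trimmomatic 0.32 and aligned with STAR 2.4.0.1 to rn6, and HTSeq and SAMtools were used. Whether counting used strand was not given in the sources used here. Left out were the 5 lines of the count table that name no gene, which held 31.45% to 35.34% of the table's total in these 7 libraries. Gene symbols came from the count table, where 27 bare numbers were left unnamed.

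Counts were tested with edgeR 4.0.16 (R 4.3.3) by the robust quasi-likelihood test with TMM factors, on the 14472 of 32545 genes kept by filterByExpr, in 1 fit of all 20 libraries with 6 group means and Benjamini-Hochberg adjustment over all genes tested. The common biological coefficient of variation of that fit, 1 value for all genes, was 1.056. Levels are TMM-scaled CPM, and log2 CPM carries a prior count of 2. FPKM values as deposited served an alternative with limma 3.58.1 and gave the gene lengths. DESeq2 1.42.0 was another alternative. The test was checked on simulated counts. Of 50 genes each with a log2 change of 1, 2, 3 and 4, it called 1, 11, 25 and 36. Of 14085 genes without a change it called 0. A gene that did not pass may therefore still differ between the days. The groups came from the submitters' labels, which number each rat.

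The 38 gene lists (697 entries, of which 55 were not tested) and the groups compared were chosen with earlier results of these data known. Named are the vasopressin and sodium channel genes in any case, the 12 largest rises and the 12 largest falls among called genes of at least 10 CPM without overlap, up to 3 called members per list, the 3 most abundant members of lists whose median lay at least 0.3 from that of all genes with 70% or more of one sign, and 3 interaction genes per direction. Genes called in both kinds of rats, genes called whichever library was left out, members given beside a list's count and genes of the sequence lines were named after their values were seen. A few genes that these rules name are not reported here.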

Additional observations from a re-analysis of the deposited data

Results flagged for a closer look

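In 5 of 136 series of 4 day 2 controls examined, 1 library lay far from the other 3 by Dixon's test, where chance marks about 1 in 20. Rpsa had 496 CPM and Cox4i1 515 CPM in day 2 control 3, both below the other day 2 rats. The mean log2 CPM of the ribosomal protein genes was 6.39 in the same library. Abhd8, called lower on day 2, had 119 CPM in day 2 control 1, above the other day 2 rats. The mean log2 CPM of the tonicity-responsive genes was 3.68 in day 2 control 2, below the others. No cause was tested.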

How the results depend on the processing

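The 194 calls became 346 with a filter of 5 CPM (93 higher and 253 lower), 495 with limma-voom (245 and 250), 1748 with DESeq2 (1029 and 719) and 327 on log2(FPKM + 0.1). They became 4 with the 7 libraries fitted alone (Ssr3, Clta, Ocel1 and Diras3), 6 with the 10 control libraries alone, 13 with detected genes per library as a covariate, 51 without day 1 control 1 and day 1 water-loaded 2 together, and 1 (Ssr3) with day 2 controls 1 and 2 alone. Leaving out 1 library gave 13 to 406. DESeq2 size factors gave 212, no filter 161 and log2(FPKM + 1) 253. The alternatives on gene length, on pairs of day 2 libraries and on both libraries that stand apart were chosen after seeing the data. For the interaction, DESeq2 called 518 genes and leaving out 1 library gave 0 to 8. The cause was not tested.

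With the replicate number as a block, 38 genes were called, 36 of them among the 194. Same-numbered libraries of the 2 days had correlations of their deviations of 0.004, 0.012 and -0.001, and differently numbered ones of -0.023 to 0.025. Over genes of at least 10 CPM these were -0.054, 0.075 and -0.055, against -0.12 to 0.149. Same-numbered libraries were thus no more alike than others, which does not settle whether the numbers mark a pairing.

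Genes that did not pass changed sign as follows, the cause being untested. In the main fit, several lay near 0, with Gadd45a at -0.04, Bcl2l1 and Atp5a1 at -0.12 and Aldoa at -0.16. Ftl1 was at -0.36, P2rx4 at -0.62, Ccng1 at -0.81, Slc34a1 at 0.3 and Miox at 1.46. Nos3 was at -3.66, with 211 CPM in day 1 control 1 and at most 17.1 CPM in the other day 2 and day 1 controls. On log2(FPKM + 1) and log2(FPKM + 0.1), Gadd45a had 0.36 and 0.36, Bcl2l1 0.17 and 0.18, Atp5a1 0.12 and 0.12, Ftl1 0.03 and 0.03, Tyrobp 0.11 and 0.2, and Aldoa 0.1 and 0.1. With limma-voom, Gadd45a had 0.2 and Tyrobp 0.22, and with quality weights P2rx4 had 0.47, Gadd45a 0.62, Nos3 1.71, Atp5a1 0.1, Ftl1 0.31 and Tyrobp 1.29. Without both day 1 libraries that stand apart, P2rx4 had 0.46, Gadd45a 0.67, Nos3 4.14, Atp5a1 0.02, Ftl1 0.41 and Tyrobp 0.91. With the length trend removed, Gadd45a had 0.1, Ftl1 0.38 and Aqp2 -0.11. With detected genes as a covariate, Ccng1 had 0.2 and Scnn1b -0.08, and with the block Scnn1b had 0.0. The 5 CPM filter gave Gadd45a 0.01. Day 2 controls 1 and 2 alone gave Bcl2l1 0.13, Scnn1b -0.25 and Aqp2 -0.14, and day 2 controls 3 and 4 alone gave Gadd45a 0.14, Miox -0.36, Slc34a1 -3.44 and Atp5a1 0.13.

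Leaving out 1 library gave ranges of -1.0 to 0.48 for P2rx4, -0.38 to 0.69 for Gadd45a, -0.33 to 0.28 for Bcl2l1, -0.64 to 2.91 for Miox, -5.28 to 4.19 for Nos3, -3.91 to 4.81 for Slc34a1, -0.74 to 0.17 for Aqp4, -0.32 to 0.05 for Atp5a1, -0.7 to 0.43 for Ftl1, -1.75 to 0.94 for Tyrobp, -0.26 to 0.0 for Aldoa and -0.01 to 0.39 for Aqp2. The common biological coefficient of variation was 1.056, and the part of this spread in the number of calls was not tested. At this depth a day 1 group without a read gives only a lower bound.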

Other observations

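Cell cycle genes gave values that no comparison above rests on. Mki67, a marker of dividing cells, had a log2 difference of -0.46 in control rats and 2.64 in water-loaded rats, and Top2a had -0.04 and 3.25. None of the 27 genes passed the edgeR test between the days in control rats or in water-loaded rats. E2f1, called lower in control rats, was not one of the 27. With all 20 libraries, the difference between the kinds of rats passed edgeR's test for no gene. It passed for 8 genes without day 1 control 3, and without day 2 control 3 for 1, Kif2c (-14.61; edgeR adjusted p = 0.0327).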
